A study of Mus musculus with 6 samples.

Results

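The Iroquois (Irx) genes of the mouse lie in 2 clusters of 3 genes, and 454 of the 323483 accessible intervals of the experiment overlapped the surroundings of these clusters. Each window ran from the first to the last base of its cluster and 300 kb further on both sides, on the mouse assembly GRCm38.p6. The window of Irx3, Irx5 and Irx6 on chromosome 8 (91498511 to 92980956, 1.48 Mb) held 243 intervals. The window of Irx1, Irx2 and Irx4 on chromosome 13 (71658232 to 73569622, 1.91 Mb) held 211. Position alone chose the members, and an overlap of 1 bp was enough.

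The intervals came from ATAC-seq, in which a transposase cuts accessible DNA, of mouse embryonic fibroblasts heterozygous for a doxycycline-controlled Myf6 transgene (TetO-Myf6) and for the M2-rtTA transactivator. The 3 groups had 2 libraries each and were kept for 24 h in iMPC medium with 10 ng/mL bFGF, alone, with doxycycline at 2 µg/mL to induce Myf6, or with doxycycline and 5 µM forskolin, 5 µM RepSox and 3 µM CHIR99021 (F/R/C). Both transgenes were thus present in every group, and the labels do not say which promoter drives the transactivator. The design compares these groups, but the table analysed here is a single joined set of positions, with no value for a library or group. An interval therefore marks a place accessible enough for a peak in the experiment, without saying in which libraries. No value below has a replicate error, depth is unknown, no statistical test was possible between groups, and the comparisons of the clusters are descriptions. Of 10 fibroblast markers, all 10 had one within 1 kb of a gene end, as did 5 of 5 skeletal muscle, 2 of 5 blood and macrophage, 3 of 5 endothelial and 4 of 5 epithelial markers. Of all 21887 protein-coding genes 74.7% had such an interval, so the epithelial and endothelial counts lay near that share.

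Irx proteins are transcription factors of the TALE class, whose homeodomain carries an extended loop. The mammalian clusters arose by duplication of an ancestral cluster, so that Irx1 pairs with Irx3, Irx2 with Irx5 and Irx4 with Irx6. The genes pattern the neural tube, limb bud and heart, and they sit in wide stretches without other coding genes, where many long-range enhancers have been described.

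RefSeq start sites and promoter sequences were at hand for Irx3, Irx2 and Irx4, and these are shown because the start sites of Irx3 and Irx2 lay inside wide intervals while that of Irx4 did not. Each sequence is the 250 bases before the start site, 5′ to 3′ on the gene's strand, from RefSeq on GRCm38.p6, and capitals mark a match to one of the motifs searched.
Irx3, chr8:91801655-91801904, minus strand: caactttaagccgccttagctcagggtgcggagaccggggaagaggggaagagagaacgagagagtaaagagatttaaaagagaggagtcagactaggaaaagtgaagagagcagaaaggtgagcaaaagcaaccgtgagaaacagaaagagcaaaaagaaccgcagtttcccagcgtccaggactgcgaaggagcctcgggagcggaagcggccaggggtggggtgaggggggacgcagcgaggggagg
Irx2, chr13:72628570-72628819, plus strand: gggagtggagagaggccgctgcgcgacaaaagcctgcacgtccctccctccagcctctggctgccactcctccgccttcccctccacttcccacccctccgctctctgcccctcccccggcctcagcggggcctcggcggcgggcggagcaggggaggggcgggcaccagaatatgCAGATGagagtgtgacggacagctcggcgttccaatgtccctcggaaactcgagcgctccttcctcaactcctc
Irx4, chr13:73260247-73260496, plus strand: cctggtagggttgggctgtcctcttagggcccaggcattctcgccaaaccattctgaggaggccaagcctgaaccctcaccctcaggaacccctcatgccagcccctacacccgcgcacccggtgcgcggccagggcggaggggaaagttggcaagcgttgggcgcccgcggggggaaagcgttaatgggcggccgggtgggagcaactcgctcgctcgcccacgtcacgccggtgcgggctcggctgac
The promoters of Irx2 and Irx4 were rich in G and C (68.4% and 68.8%), with 19 and 22 CpG dinucleotides, and that of Irx3 had 56.0% and 13. Over 21263 promoters of protein-coding genes the medians were 55.6% (quartiles 47.2 and 64.0%) and 10 CpG. In G and C the Irx3 promoter thus lay near the median of all promoters, and the others above the upper quartile.

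Motifs were searched on both strands of these 250 bases. The general E-box of basic helix-loop-helix factors (CANNTG) was found once, as CAGATG at position -74 of Irx2 counted from the start site, and 62.8% of all promoters hold such a match. The E-box favoured by myogenic factors (CAGCTG, a form of the general one), the AP-1 site (TGANTCA), the cAMP response element (TGACGTCA), the TEAD site (GGAATG) and the TATA box (TATAAA) were not found in any of the 3. The shares of all promoters that hold them are 12.1%, 6.13%, 1.92%, 11.7% and 11.6%. A match or its absence describes these letters only.

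Each of the 6 Irx genes carried an interval within 1 kb of an annotated end (lower and upper ends are named by chromosomal position). The share over all protein-coding genes was the 74.7% given above. All 12 listed TALE genes outside the clusters (of the Meis, Pbx, Pknox, Tgif and Mkx families) had one too. Each Irx gene also had an interval of at least 1288 bp within 10 kb. The widest near each measured 2059 bp at Irx6, 1962 bp at Irx2, 1890 bp at Irx1, 1662 bp at Irx3, 1654 bp at Irx4 and 1288 bp at Irx5. Over all protein-coding genes the median for the widest interval within 10 kb was 1284 bp, with quartiles at 787 and 1662 bp. Irx1, Irx2 and Irx6 lay above the upper quartile, Irx3 on it, Irx4 just below it and Irx5 near the median. Width is the extent of joined peaks and not a signal level.

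**Figure D1:**
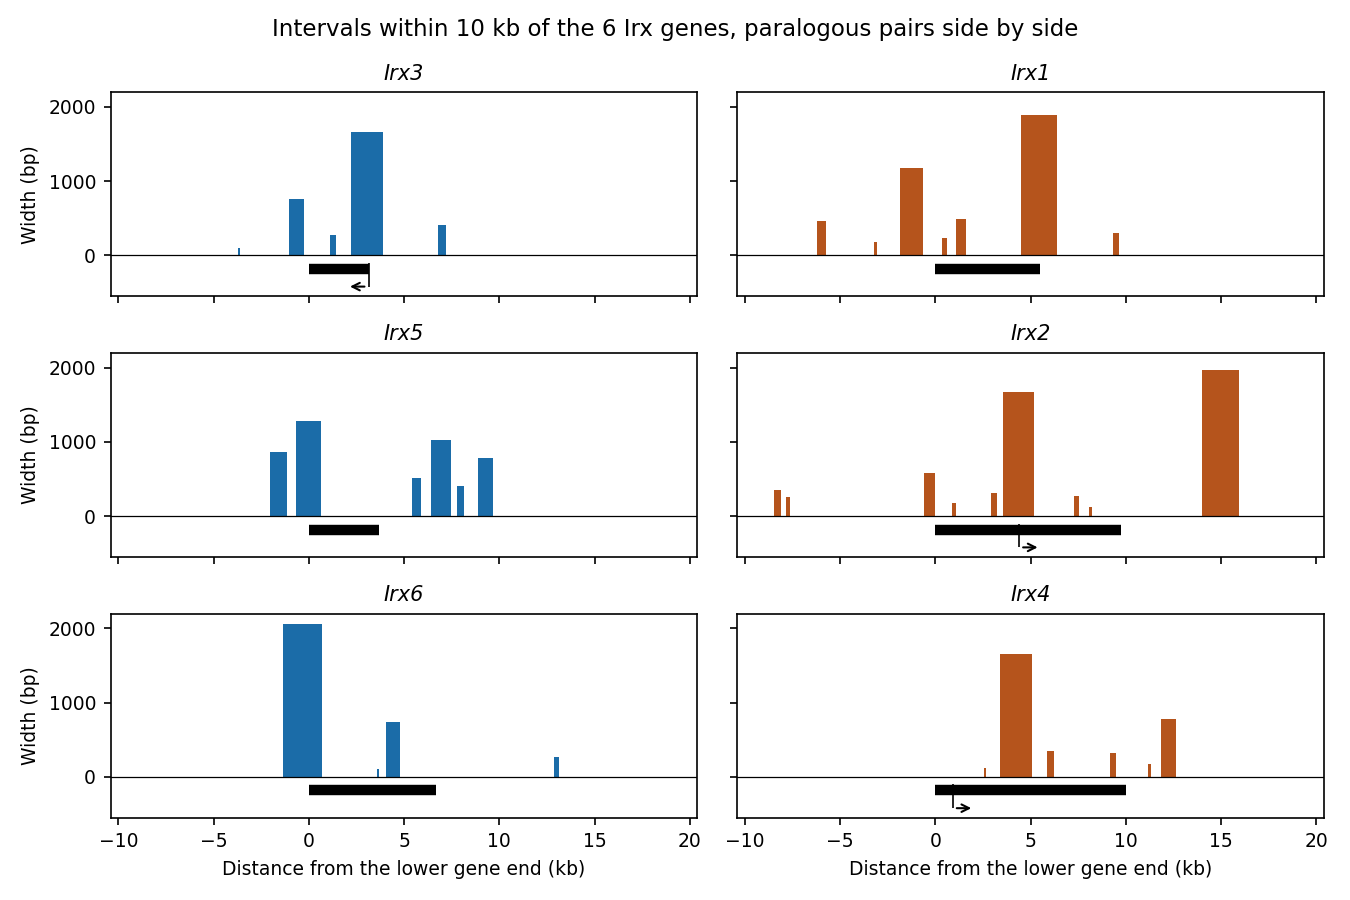
Intervals within 10 kb of each Irx gene, drawn along the chromosome from the lower gene end (x axis, kb), with the height of a block equal to its width in bp. Black bars are genes and arrows are RefSeq start sites, shown for 3 genes; a wide block covers the start of Irx3 and of Irx2, and the widest block at Irx4 begins 2506 bp downstream of its start.

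The first pair is Irx3, which acts in the limb bud, the neural tube and the cardiac conduction system, and Irx1, expressed in the developing lung and limb. Irx3 (gene ID 16373, chromosome 8, 91798511 to 91801654) had 5 intervals within 10 kb, of 106, 761, 273, 1662 and 403 bp in chromosomal order. The interval of 1662 bp, from 91800739 to 91802400, covered its start site, and 37.8% of the gene lay in intervals. Irx1 (gene ID 16371, chromosome 13, 71958232 to 71963723) had 7 intervals, of which that of 1890 bp (71962754 to 71964643) spanned its upper end. Another of 1174 bp ended 655 bp below its lower end, and 31.1% of Irx1 was covered. In both genes of this pair the widest interval lay across the upper end, which is the start of Irx3. A second interval, of 761 and 1174 bp, lay within 1 kb outside the other end. That of 761 bp, at Irx3, covered the start site of the long noncoding RNA gene Gm39222.

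The second pair is Irx5, needed with Irx3 in the limb bud and for the repolarization gradient of the ventricle wall, and Irx2, expressed like Irx1 in lung and limb. Irx5 (gene ID 54352, chromosome 8, 92357796 to 92361456) had 6 intervals within 10 kb, and the only one over the gene, 1288 bp from 92357140 to 92358427, spanned its lower end. The other 5 lay outside it, among them an interval of 1021 bp (92364233 to 92365253) 2777 bp beyond the upper end, and 17.3% of Irx5 was covered. Irx2 (gene ID 16372, chromosome 13, 72624430 to 72634196) had 9 intervals, the most of the 6 genes, and 26.0% of it was covered. Its gene-end intervals measured 581 bp (72623819 to 72624399, 31 bp below the lower end) and 171 bp (72625321 to 72625491, inside the gene). The interval over the Irx2 start site measured 1671 bp (72627958 to 72629628) and lay inside the gene as RefSeq annotates it. It was not within 1 kb of an annotated end. The widest interval of the whole chromosome 13 window, 1962 bp from 72638436 to 72640397, lay 4240 bp beyond the upper end of Irx2.

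The last pair is Irx6, known from bipolar cells of the retina, and Irx4, a regulator of ventricular identity in the heart. Irx6 (gene ID 64379, chromosome 8, 92674289 to 92680956) had 4 intervals, the fewest of the 6. That of 2059 bp, from 92672924 to 92674982, spanned its lower end and was the widest of the chromosome 8 window; 0.444% of all intervals were as wide. Irx4 (gene ID 50916, chromosome 13, 73259589 to 73269622) had 6 intervals, 4 of them over the gene. No interval overlapped the Irx4 promoter sequence shown above or lay within 1 kb of its lower end. The nearest to its start site was an interval of 115 bp, 1625 bp downstream, followed by one of 1654 bp (73263003 to 73264656) 2506 bp downstream. The gene-end interval of Irx4 measured 323 bp and lay at the other end. Of the 17492 protein-coding genes with a promoter in the table, 67.0% had an interval over it, as did 2 of the 3 Irx genes.

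In intervals per 10 kb of gene and surroundings, the order was Irx2 (3.02), Irx1 (2.75), Irx5 (2.54), Irx3 (2.16), Irx4 (2.00) and Irx6 (1.50). The median protein-coding gene had 1.82 (quartiles 0.862 and 2.63). Irx2 and Irx1 thus stood above the upper quartile and the other 4 between the quartiles. The 12 listed TALE genes outside the clusters had a median of 2.56 (1.45 to 4.77), against 2.35 for the Irx genes. The counts behind the order, 9, 7, 6, 5, 6 and 4 intervals, differ by few intervals and have no error, so neighbours in it cannot be separated. Irx genes are short, and by cover they stood higher. The counts were set against protein-coding genes of all lengths, over which the median cover was 8.72% (quartiles 2.33 and 15.0%). Between 17.3% (Irx5) and 37.8% (Irx3) of a gene lay in intervals, against a median of 13.3% (quartiles 1.97 and 22.3%) over 5052 protein-coding genes of 3 to 11 kb. Irx5 was the member below that upper quartile.

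The windows of the 2 clusters, flanks included, differed in how densely they were filled. The chromosome 8 window had 164 intervals per Mb and 7.72% of its sequence in intervals, against 110 per Mb and 4.79% for the chromosome 13 window. The ratios were 1.48 for the number and 1.61 for the cover. From the first to the last Irx gene, without flanks, the densities were 139 and 84.6 per Mb, a ratio of 1.65. Interval widths differed less. Their median was 380 bp (quartiles 183 and 662.5 bp) on chromosome 8 and 309 bp (quartiles 175 and 588.5 bp) on chromosome 13. Over all intervals it was 336 bp. The median gap between neighbouring intervals was nearly equal, 3.33 kb on chromosome 8 and 3.23 kb on chromosome 13.

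**Figure D2:**
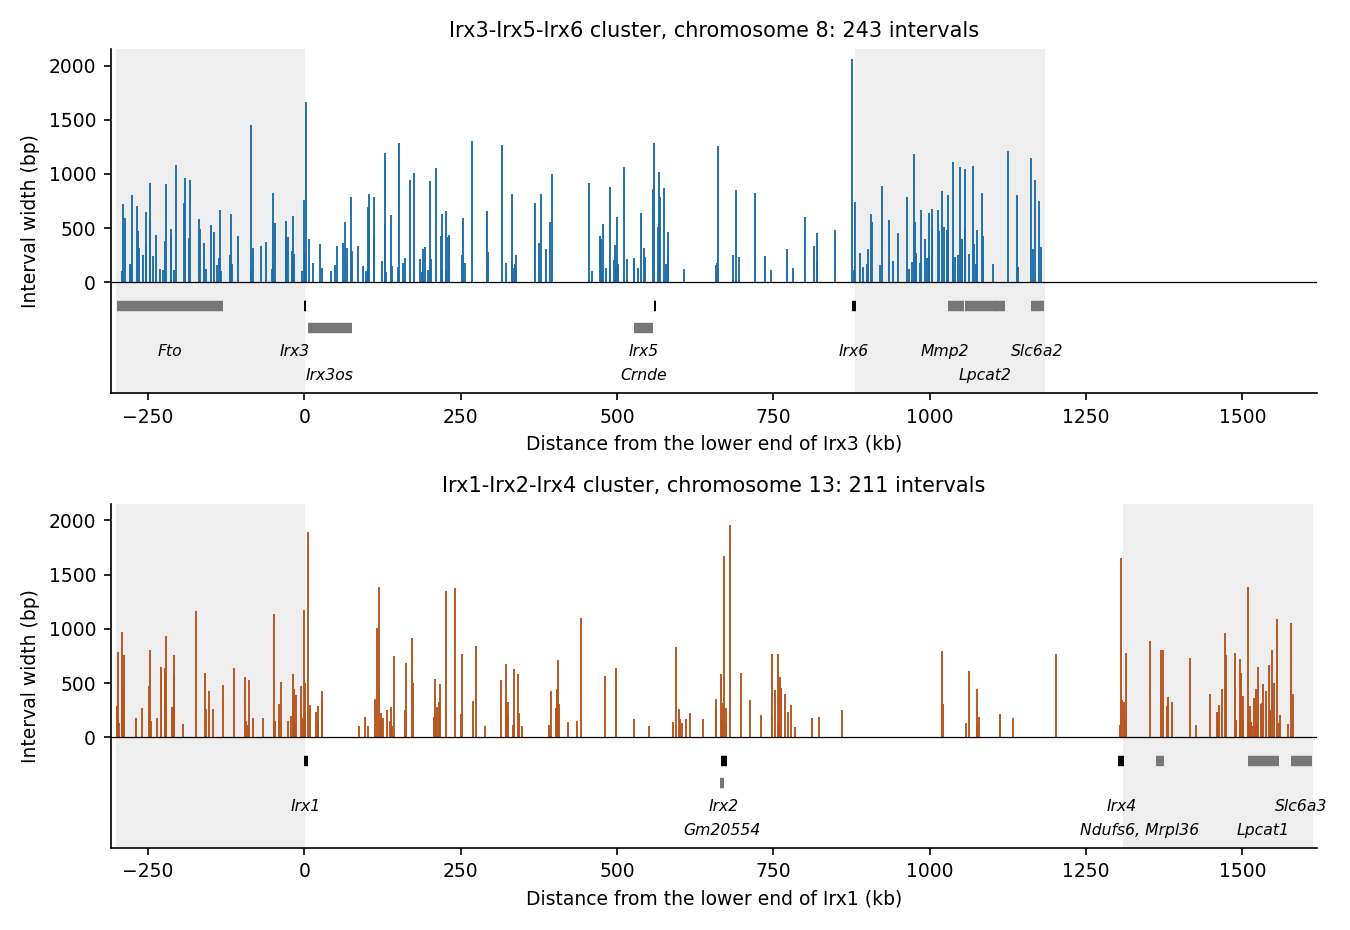
Every interval of both windows as a line at its position (x axis, kb from the lower end of the first Irx gene) whose height is its width in bp; grey areas are the 300 kb flanks, black bars Irx genes, and grey bars other coding genes and selected long noncoding RNAs. The sequence between Irx2 and Irx4 holds 28 intervals in 625 kb, and that between Irx5 and Irx6 holds 26 in 313 kb.

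Close to the genes the count per Mb ran the other way, though by few intervals. Within 10 kb of an Irx gene, chromosome 13 had 258 interval midpoints per Mb (22 in 85.3 kb) and chromosome 8 had 204 (15 in 73.5 kb). Cover there was nearly equal, with a ratio of 0.95 of chromosome 8 over chromosome 13. That restriction was added after the data were seen, and counts this small cannot separate the clusters. From 10 to 50 kb away, chromosome 8 had 150 per Mb and chromosome 13 had 83.3, and from 100 to 200 kb away the values were 162 and 88.3. From 50 to 100 kb away they were 167 and 113, and beyond 200 kb 166 and 120. In each of the 4 distance classes beyond 10 kb the density per Mb was thus higher in the Irx3-Irx5-Irx6 window, although beyond 200 kb its number of intervals was the smaller one (59 against 82), over less sequence.

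**Figure D3:**
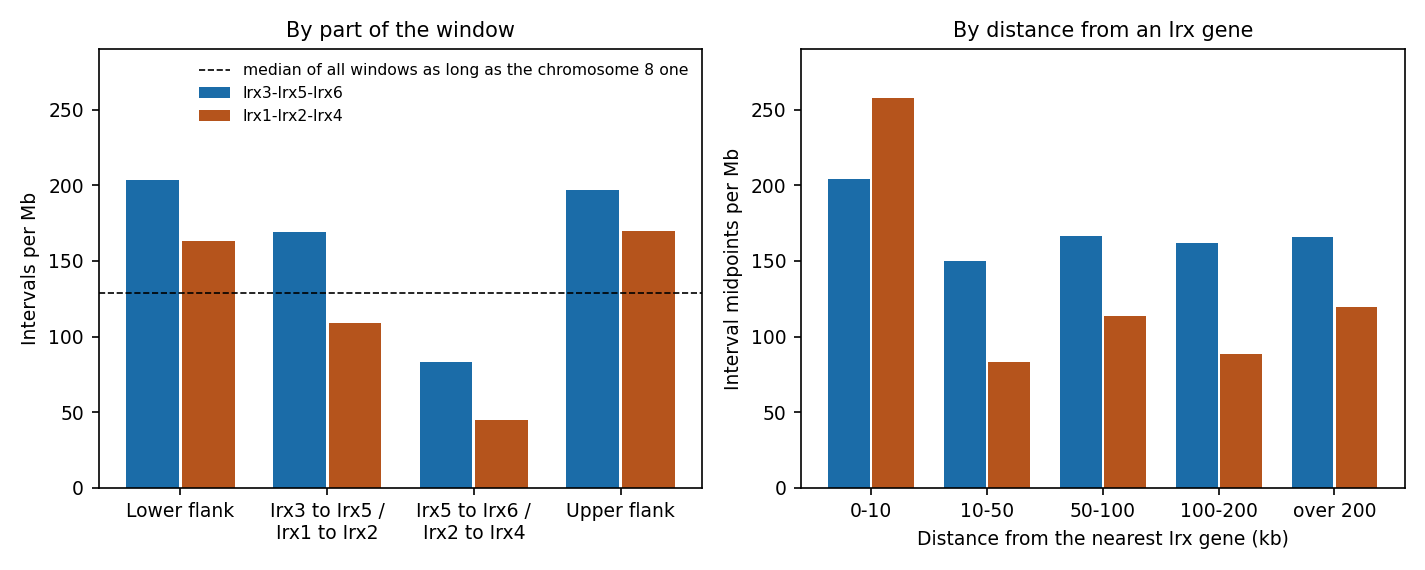
Intervals per Mb in 4 parts of each window (left) and interval midpoints per Mb by distance from the nearest Irx gene (right), with the Irx3-Irx5-Irx6 cluster in blue and the Irx1-Irx2-Irx4 cluster in orange; the dashed line is the median of all windows of 1.48 Mb (129 per Mb). The spacer before the last gene is the lowest part of both clusters. Chromosome 13 is the higher one only within 10 kb of a gene, on 22 against 15 midpoints.

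The spacers showed the same order in both clusters. Between Irx3 and Irx5 (556 kb) there were 94 intervals, or 169 per Mb, and between Irx5 and Irx6 (313 kb) there were 26, or 83.1 per Mb, a ratio of 2.03. Between Irx1 and Irx2 (661 kb) there were 72 intervals, or 109 per Mb, and between Irx2 and Irx4 (625 kb) there were 28, or 44.8 per Mb, a ratio of 2.43. Of the paralogous spacers, the one on chromosome 8 was thus 1.55 times and 1.86 times as dense as its counterpart. The flanks differed less, with 203 against 163 per Mb below the clusters and 197 against 170 above them.

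The emptiest stretches lay between Irx2 and Irx4. The longest stretch of either window without an interval, 160 kb from 72818244 to 72978105, holds the long noncoding RNA gene Gm30049. Of the 323450 stretches between neighbouring intervals of the whole set, 919 were as long. Stretches of at least 50 kb numbered 4 of 210 on chromosome 13, 2 of 242 on chromosome 8 and 5455 of 323450 in the whole set. A second one, 101 kb from 73160733 to 73262121, ran up to and over the lower end of Irx4 with its start site, and another of 67.8 kb lay over Gm30154. The longest stretches on chromosome 8 measured 57.9 kb (92194615 to 92252464), between Irx3 and Irx5, 51.2 kb (92406042 to 92457210), between Irx5 and Irx6, and 29.9 kb (92137632 to 92167562), between Irx3 and Irx5. Whether reads can be mapped uniquely in these stretches was not tested. In bins of 50 kb, 4 of 38 on chromosome 13 and 1 of 29 on chromosome 8 held no interval. The medians were 5 and 9 intervals, and bins of the other chromosomes were not counted.

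Set among all windows of the same length, tiled in steps of 100 kb, neither cluster stood at an extreme. The median window of 1.48 Mb had 129 intervals per Mb (quartiles 66.8 and 182), and 65.7% of 25325 windows had fewer than the Irx3-Irx5-Irx6 window. The median window of 1.91 Mb had 130 (quartiles 69.6 and 179), and 41.1% of 25241 windows had fewer than the Irx1-Irx2-Irx4 window. The Irx2 to Irx4 spacer was lower placed, since 21.2% of 25496 windows of its length had fewer intervals. For the other spacers the shares were 36.6% (Irx5 to Irx6), 43.5% (Irx1 to Irx2) and 66.1% (Irx3 to Irx5). Tiled windows overlap and include gene-rich sequence, so these shares are positions and not tests.

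**Figure D4:**
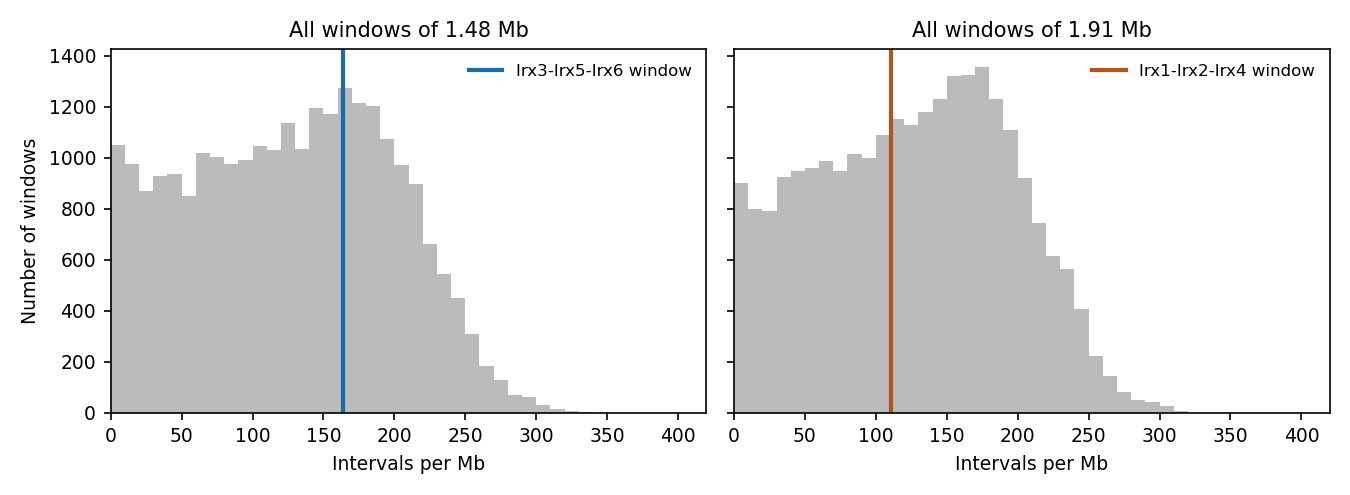
Number of windows (y axis) by intervals per Mb (x axis) over all tiled windows as long as each cluster window, with the cluster as a coloured line. The Irx3-Irx5-Irx6 window (164 per Mb) lies above the median and the Irx1-Irx2-Irx4 window (110 per Mb) below it, both between the quartiles.

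Wide intervals far from coding genes were found in both clusters. At a distance of over 10 kb from all coding genes, 10 of 160 intervals on chromosome 8 (6.25%) and 7 of 157 on chromosome 13 (4.46%) were at least 1000 bp wide, against 5.57% of 112767 such intervals in the whole set. On chromosome 8, 7 of the 10 lay between Irx3 and Irx5, including 1305 bp at 92065029 to 92066333, 263 kb from Irx3, and 1282 bp at 91948305 to 91949586, 147 kb from it. The widest of the 10, 1455 bp at 91712573 to 91714027, lay 84.5 kb below Irx3 over the long noncoding RNA gene Gm36325. On chromosome 13, 5 of the 7 lay between Irx1 and Irx2, among them 1382 bp at 72076393 to 72077774, 113 kb from Irx1, and 1373 bp at 72197858 to 72199230, 234 kb from it. None of the 7 lay between Irx2 and Irx4. Of intervals of any width, 94 of 243 lay between Irx3 and Irx5, 72 of 211 between Irx1 and Irx2 and 28 of 211 between Irx2 and Irx4. Intervals over 10 kb from coding genes were not counted by spacer, so whether these few wide ones favoured a spacer was not tested.

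Long noncoding RNA genes sit beside 3 of the Irx genes. The start site of Gm20554 lies 256 bp from that of Irx2 on the other strand, and the interval of 1671 bp covered both. Crnde starts 1676 bp below Irx5, and its start lay in an interval of its own, 865 bp from 92355785 to 92356649, which 490 bp separate from the interval at the lower end of Irx5. Irx3os starts 1682 bp from Irx3, and no interval overlapped its promoter sequence. The interval over the Irx3 start ended 936 bp from the Irx3os start. Below Irx3, the start of Gm39222 lay in the interval of 761 bp near the lower end of Irx3. Of all long noncoding RNA genes touching a window, 10 of 11 on chromosome 8 and 5 of 10 on chromosome 13 had an interval over them, beside 76.2% of the 12727 long noncoding RNA genes of the RefSeq table. The one without on chromosome 8 was Gm36380, below Irx3. The 5 without on chromosome 13 all lay between Irx1 and Irx4 (Gm41000, D730050B12Rik, Gm30049, Gm30154 and 4930555K05Rik). Most of the 10 lie there, since only Gm40999 and Eprn lie in the flanks. Gm38580, Gm20554 and Gm41001, also between Irx1 and Irx4, had an interval over them.

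The flanks hold other coding genes, with members of the same families above both clusters. Lpcat1 and Lpcat2 encode acyltransferases of lysophospholipids, and Slc6a3 and Slc6a2 the dopamine and noradrenaline transporters. Lpcat1, above Irx4, had 21 intervals over 49.2 kb with 17.4% of it covered, and its bin of 50 kb was the fullest of either window with 20 intervals. Lpcat2, above Irx6, had 10 over 64.0 kb with 7.51% covered. For the transporter genes the order was reversed, with 5 intervals in the 20.5 kb of Slc6a2 inside the window and 2 in the 33.5 kb of Slc6a3. Mmp2, which encodes a matrix-degrading gelatinase of fibroblasts, had 9 intervals and 18.0% cover, and its bin was the fullest on chromosome 8 with 14 intervals and 16.5% cover. Ndufs6 (1 interval) and Mrpl36 (2), genes of mitochondrial proteins, both had an interval at a gene end, and Capns2 had none over it. Below Irx3 the window takes in 170 kb of Fto, whose introns are known for long-range contact with Irx3, with 39 intervals, or 2.30 per 10 kb.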

How the data were processed

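ATAC-seq libraries of 3 groups, 2 libraries each, entered the interval set. The submitters' processing notes name BWA, MACS2, DESeq2 and GRCm38.p6, with no versions. HOMER's annotatePeaks was run on a consensus peak set with GENCODE vM23, per the file headers. The rules for calling and joining peaks are not given in the sources used here. Each deposited row has a chromosome, start and end, and the deposited peak score is 0 throughout.

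Genes, start sites and promoter sequences came from RefSeq tables of GRCm38.p6, and the promoter table was matched by symbol for 3 of the 6 Irx genes. Windows, gene surroundings (10 kb), gene ends (1 kb) and bins (50 kb) counted intervals overlapping by at least 1 bp. Windows of equal length were tiled in steps of 100 kb over chromosomes 1 to 19 and X. Genes named were the Irx genes, all coding genes in a window, and those at the 5 widest intervals, the 3 longest empty stretches and the fullest bins of each window. The members and lists were chosen with earlier results of these data known, and the noncoding genes and wide distal intervals after their values were seen. Counting was tested on simulated data, where all 200 windows gave the known values. Alternatives varied the extension, overlap rule, minimum width, joining, gene-end distance and parts left out. Computations used Python 3.11.15, pandas 2.3.3 and numpy 2.4.6, intervals of the ratio scipy 1.17.1, and figures matplotlib 3.10.9.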

Additional observations from a re-analysis of the deposited data

How the results depend on the processing

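The ratio of intervals per Mb between the chromosome 8 and chromosome 13 windows (1.48, exact binomial 95% interval 1.23 to 1.79, which covers counting error only and treats intervals as independent) stayed above 1 under 9 alternatives of extension, overlap rule, minimum width, joining and genes left out. It was 1.85 with intervals of at least 600 bp and 1.42 to 1.72 under the other 8. The ratio of cover ranged from 1.49 to 1.78 and that of median widths from 1.03 to 1.23 under the same 9. Of 2 restrictions added after seeing the data, sequence within 10 kb of an Irx gene turned both ratios (0.79 for intervals, 0.95 for cover), and leaving out the spacer before the last gene gave 1.31 and 1.40. The number of Irx genes with a gene-end interval was 5 of 6 at 500 bp and 4 with intervals of at least 600 bp. The share over all protein-coding genes was not computed at these settings, so these counts have no background to be set against. Over promoter sequences, added later, it was 2 of the 3 genes with an entry. The 37 intervals within 10 kb of the Irx genes became 24 and 14 with minimum widths of 300 and 600 bp, and 93 within 50 kb. With the 50 bases after the start site included, 2 of 3 Irx promoters held an E-box, near the 69.0% of all promoters that did. No paired analysis was possible because the table holds no library values. Depth is unknown, so a stretch without intervals can be one with too few reads.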
